A study of Homo sapiens with 6 samples.

Results

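The aryl hydrocarbon receptor (AHR), its nuclear partner ARNT, its repressor AHRR and its targets CYP1A1, CYP1B1 and TIPARP were followed in MDA-MB-231 cells. This established human line of triple-negative breast cancer is known for having neither hormone receptor and no amplified HER2. The 6 genes were taken by exact gene symbol, 1 row each, from 58656 gene rows, and all 6 were among the 16481 genes abundant enough to be tested. Transcripts were measured by RNA sequencing in 3 libraries from cells given mitocurcumin, a mitochondria-targeted derivative of the plant polyphenol curcumin, at 5 µM for 9 hours. The other 3 libraries came from cells given the DMSO vehicle for the same 9 hours. All cells grew in DMEM with fetal bovine serum, and both groups come from this single line. The labels call the replicates biological without naming separate cultures, so the p-values given here cover only the variation among these libraries, which may be technical.

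AHR is a ligand-activated transcription factor of the bHLH-PAS family that waits in the cytosol in a complex with HSP90 and p23. Dioxin-like pollutants, dietary compounds and tryptophan metabolites bind it, after which it enters the nucleus, pairs with ARNT and binds DNA elements with the core GCGTG. CYP1A1 and CYP1B1, which oxidise aromatic hydrocarbons and estrogens, are its classical targets, and AHRR and TIPARP are induced targets that restrain it. Breast cancer lines without the estrogen receptor, this one among them, are known for abundant AHR.

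AHR and CYP1B1 rose after mitocurcumin by 1.26-fold and 1.39-fold, and TIPARP rose by 1.12-fold. ARNT, AHRR and CYP1A1 did not pass the test. CYP1A1 and AHRR were at the edge of what these libraries measure, with at most 35 and 58 counts in any library. So 3 of 6 genes were higher and 0 lower, where 14.7% of all tested genes were higher and 17.8% lower at an adjusted p under 0.05 (quasi-likelihood F-test of edgeR, Benjamini-Hochberg adjustment over all tested genes). All mitocurcumin values exceeded all vehicle values in AHR, CYP1B1 and TIPARP and in 21.2% of all tested genes, and lay below them in 0 of the 6 genes and in 23.7% of all tested genes. In either direction the groups were thus separate in 3 of the 6 genes and in 44.9% of all tested genes. The median log2 fold change of the 6 genes was 0.32, beside -0.0059 over all tested genes. The genes were chosen with earlier results of these data known, so these shares describe them and are no test of the group.

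The start regions of a pair of genes that rose, AHR and TIPARP, and of the scarcely transcribed pair AHRR and CYP1A1 are printed here, each from 250 bases before to 50 bases after an annotated start. They come from a table of RefSeq promoters on GRCh38.p14, in which 5 of the 6 genes had an entry, all but CYP1B1. For AHRR and TIPARP, which have further starts, the most upstream start is shown. Each runs 5′ to 3′ on the gene's own strand, and capitals mark the receptor core GCGTG, or CACGC where the core lies on the opposite strand.
AHR: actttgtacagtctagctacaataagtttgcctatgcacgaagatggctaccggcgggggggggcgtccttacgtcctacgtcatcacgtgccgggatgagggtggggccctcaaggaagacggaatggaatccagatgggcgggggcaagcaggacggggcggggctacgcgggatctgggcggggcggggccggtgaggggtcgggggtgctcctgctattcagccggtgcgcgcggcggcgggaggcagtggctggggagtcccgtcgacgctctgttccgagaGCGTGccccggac
TIPARP: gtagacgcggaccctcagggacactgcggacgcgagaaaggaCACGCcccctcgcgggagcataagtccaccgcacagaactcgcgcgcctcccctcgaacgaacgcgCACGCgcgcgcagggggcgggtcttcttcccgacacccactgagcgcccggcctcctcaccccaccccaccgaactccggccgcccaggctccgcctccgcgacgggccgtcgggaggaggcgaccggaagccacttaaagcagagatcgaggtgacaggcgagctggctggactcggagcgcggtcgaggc
AHRR: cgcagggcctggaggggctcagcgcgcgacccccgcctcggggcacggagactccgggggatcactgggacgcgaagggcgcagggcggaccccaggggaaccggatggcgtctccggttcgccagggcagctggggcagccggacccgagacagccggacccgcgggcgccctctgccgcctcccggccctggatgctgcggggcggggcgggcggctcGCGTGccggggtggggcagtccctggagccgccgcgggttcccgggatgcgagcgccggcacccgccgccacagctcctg
CYP1A1: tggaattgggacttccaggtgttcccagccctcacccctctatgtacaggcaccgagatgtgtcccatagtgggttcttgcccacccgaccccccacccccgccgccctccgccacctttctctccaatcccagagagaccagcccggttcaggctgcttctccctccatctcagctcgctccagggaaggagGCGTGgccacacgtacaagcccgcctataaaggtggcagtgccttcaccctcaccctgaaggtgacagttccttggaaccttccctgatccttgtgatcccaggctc
These windows are chr7:17298402-17298701 on the plus strand for AHR and chr3:156674340-156674639 on the plus strand for TIPARP. AHRR is shown at chr5:321464-321763 on the plus strand and CYP1A1 at chr15:74725479-74725778 on the minus strand. The core was found 2 times in TIPARP and 1 time each in AHR, AHRR and CYP1A1, searched on both strands, and 0 times in the window of ARNT. At further starts the counts differed: the other 2 TIPARP windows held it 0 times and the other AHRR window 2 times. It is short and common: 36.5% of all 35116 such windows held it, and 54.5% of the 16447 windows with at least 60% G and C, a content that all 4 windows shown had. The longer form TNGCGTG occurred 1 time, in AHRR, and in 5.51% of all windows. GCGTG also overlaps the core of hypoxia response elements, bound by ARNT with HIF1A or EPAS1. A match of letters is no evidence of binding, and the known upstream enhancer of CYP1A1 lies outside this window.

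The receptor gene AHR (Entrez 196, chromosome 7, 17298652 to 17346147, plus strand, GRCh38) was among the abundant transcripts. It had 388, 398 and 373 CPM in the mitocurcumin libraries, against 305.5, 300.4 and 317 CPM in the vehicle libraries. CPM are counts scaled to a common library size. The lowest mitocurcumin value lay well above the highest vehicle value, and the libraries within a group lay close together. AHR averaged 386 ± 12.8 CPM after mitocurcumin and 308 ± 8.67 CPM with vehicle (SD, n = 3 each). Its log2 fold change was 0.33 ± 0.05 (SE), with a 95% interval of 0.22 to 0.44 and an edgeR adjusted p of 1.3e-04. In all, 18.0% of tested genes had a larger log2 fold change, so the rise of AHR was of ordinary size in this experiment. In bulk RNA, a change in RNA per cell and a change in the mix of cells cannot be told apart. The row LOC101927609, which overlaps the first 669 bp of AHR on the opposite strand, was listed at 0 in every library.

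ARNT, which dimerises with AHR and also with the hypoxia factors, had 55.7, 58.6 and 52.1 CPM in mitocurcumin libraries, against 55.8, 58.4 and 64.2 CPM in vehicle libraries (Entrez 405, chromosome 1, 150809713 to 150876599, minus strand). The groups overlapped. The log2 fold change was -0.10 ± 0.07 with a 95% interval of -0.26 to 0.06 and an edgeR adjusted p of 0.326. This interval leaves room for a fold between 0.836 and 1.04, and so excludes a rise of the size seen for AHR. Within each library the ratio of AHR to ARNT counts was 6.97, 6.79 and 7.15 after mitocurcumin, against 5.48, 5.14 and 4.94 with vehicle. All mitocurcumin ratios stood above all vehicle ratios, a measure that no scaling between libraries can move. The log2 ratio was higher by 0.43 after mitocurcumin (exact two-sided permutation test, p = 0.1, the smallest that 3 libraries against 3 allow).

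**Figure D1:**
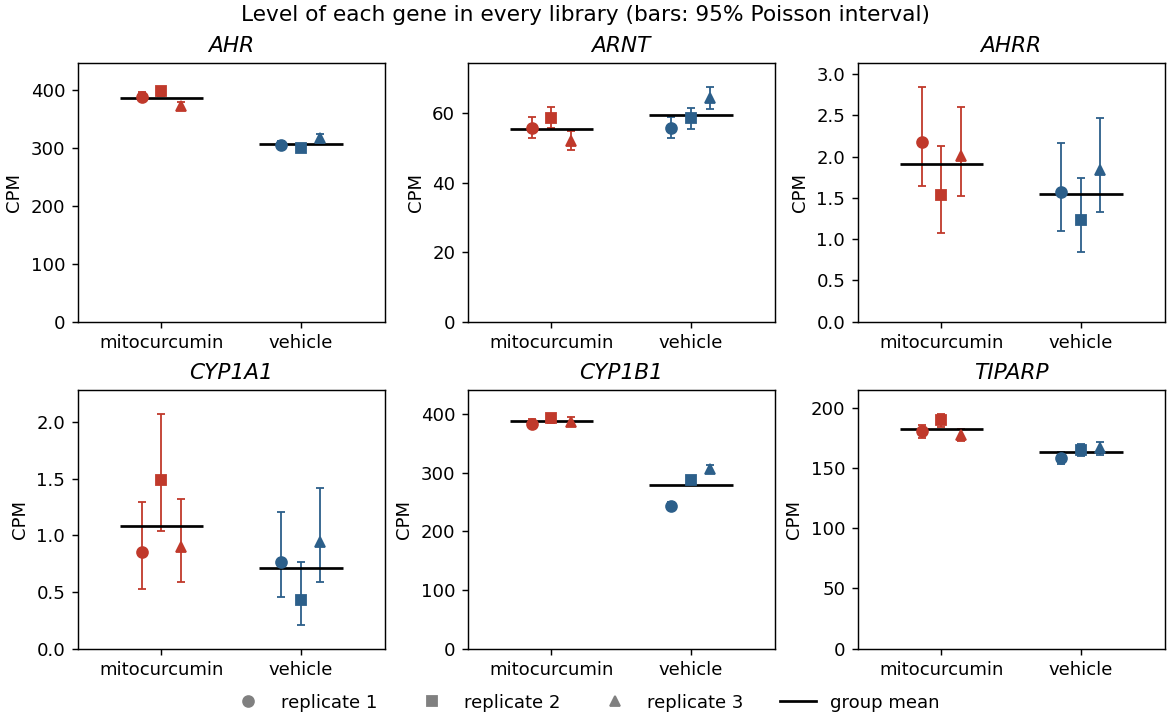
Level of the 6 genes in every library in CPM, with a linear axis from 0 in each panel, mitocurcumin in red left of vehicle in blue, the mean as a black line and 95% Poisson intervals of counting error as bars. The groups separate for AHR, CYP1B1 and TIPARP and overlap for ARNT, AHRR and CYP1A1, whose CYP1A1 and AHRR bars are wide because at most 35 and 58 counts lie behind a point.

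The repressor AHRR, which shares the AHR dimerisation region and competes for ARNT, was near the lower end of measurable genes (Entrez 57491, chromosome 5, 321714 to 438285, plus strand). It had 54, 36 and 58 counts in the mitocurcumin libraries and 37, 32 and 43 counts in the vehicle libraries. In CPM this was 2.18, 1.53 and 2.01 after mitocurcumin, against 1.57, 1.24 and 1.83 with vehicle, and the groups overlapped. The counting interval of a single library was wide, for example 1.64 to 2.85 CPM in mitocurcumin replicate 1 (95%, exact Poisson, counting error only). The log2 fold change was 0.31 ± 0.27 with a 95% interval of -0.26 to 0.88 (edgeR adjusted p = 0.422). In fold terms the interval ran from 0.834 to 1.84, so it left room for no change and for a rise as large as that of AHR. AHRR lies wholly inside PDCD6-AHRR, a readthrough row on the same strand with 64 to 82 counts after mitocurcumin and 50 to 70 counts with vehicle, and the pair may share reads. Both rows together had 135, 100 and 140 counts in mitocurcumin libraries, against 87, 84 and 113 counts in vehicle libraries. The readthrough row begins upstream of AHRR, so part of this sum may come from outside AHRR. The sum changed by 0.31 on the log2 scale (edgeR adjusted p = 0.24), an alternative added after the values were seen.

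CYP1A1, the most inducible P450 target of the receptor, was barely present (Entrez 1543, chromosome 15, 74719542 to 74725528, minus strand). The mitocurcumin libraries held 21, 35 and 26 counts and the vehicle libraries 18, 11 and 22 counts. In CPM it stood at 0.849, 1.49 and 0.901 after mitocurcumin, against 0.763, 0.425 and 0.939 with vehicle. Mitocurcumin replicate 2 was the highest and vehicle replicate 2 the lowest, and the rest of both groups intermingled. The filter asked for about 0.413 CPM in 3 libraries, which CYP1A1 met in all 6, so by the filter it was measurable, but its mean of 0.895 CPM fell short of a filter at 1 CPM. The log2 fold change was 0.61 ± 0.40, with a 95% interval of -0.24 to 1.45 and an edgeR adjusted p of 0.275. It was 0.32 without mitocurcumin replicate 2 and 0.34 without vehicle replicate 2. In fold terms the interval ran from 0.847 to 2.73, so it left room for no change as well as for a rise within that range. CYP1A2, the sister gene that is normally a liver enzyme, had 42, 43 and 81 counts after mitocurcumin and 34, 42 and 48 counts with vehicle, a log2 fold change of 0.32 ± 0.27 (edgeR adjusted p = 0.411), or 0.05 without mitocurcumin replicate 3.

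CYP1B1, the P450 that hydroxylates estradiol and is the family member found in many tumours, was in contrast abundant (Entrez 1545, chromosome 2, 38067509 to 38076151, minus strand). It had 384, 393 and 387 CPM in mitocurcumin libraries, against 244, 288 and 306 CPM in vehicle libraries. The mitocurcumin values lay within a narrow band above all vehicle values, and the vehicle values were more spread, with vehicle replicate 1 lowest. The means were 388 ± 4.48 CPM after mitocurcumin and 279 ± 31.95 CPM with vehicle (SD, n = 3 each). CYP1B1 rose by 0.47 ± 0.07 on the log2 scale, with a 95% interval of 0.33 to 0.62 and an edgeR adjusted p of 6.0e-05. Vehicle replicate 1 also stood apart from the other vehicle libraries over all genes, and without it the rise of CYP1B1 was 0.39. RMDN2, the nearest gene, ends 371 bp away on the opposite strand and did not pass, at -0.03 ± 0.19 (edgeR adjusted p = 0.93).

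The ratio of CYP1B1 to AHR counts was 0.989, 0.987 and 1.04 after mitocurcumin, against 0.798, 0.959 and 0.964 with vehicle. The groups did not overlap, and the log2 ratio was higher by 0.15 after mitocurcumin (exact two-sided permutation test, p = 0.1), or by 0.06 without vehicle replicate 1. Without it, the mitocurcumin ratios remained above the other vehicle ratios by a small margin, 0.987 against 0.964 at the closest. The ratio of CYP1A1 to CYP1B1 counts was 0.00217, 0.00377 and 0.00233 after mitocurcumin, against 0.00317, 0.00144 and 0.00307 with vehicle, and these overlapped.

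TIPARP, a PARP family enzyme that ADP-ribosylates AHR and lowers its activity, had 181, 190 and 178 CPM after mitocurcumin, against 158, 165 and 166 CPM with vehicle (Entrez 25976, chromosome 3, 156674590 to 156706770, plus strand). Every mitocurcumin value exceeded every vehicle value, by a small margin. TIPARP rose by 0.16 ± 0.05 on the log2 scale, with a 95% interval of 0.05 to 0.27 and an edgeR adjusted p of 0.0265. The call was lost without mitocurcumin replicate 2 (edgeR adjusted p = 0.1) and without vehicle replicate 2 (edgeR adjusted p = 0.0659), in a range of 0.0133 to 0.1 over its alternatives. In relation to AHR, TIPARP was lower after mitocurcumin, with ratios of 0.465, 0.476 and 0.477, against 0.518, 0.549 and 0.524 with vehicle. That log2 ratio differed by -0.17 (exact two-sided permutation test, p = 0.1). TIPARP-AS1, which overlaps the start of TIPARP on the opposite strand by 1124 bp, had 10, 2 and 11 counts after mitocurcumin and 15, 17 and 8 counts with vehicle, and was too low to test.

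**Figure D2:**
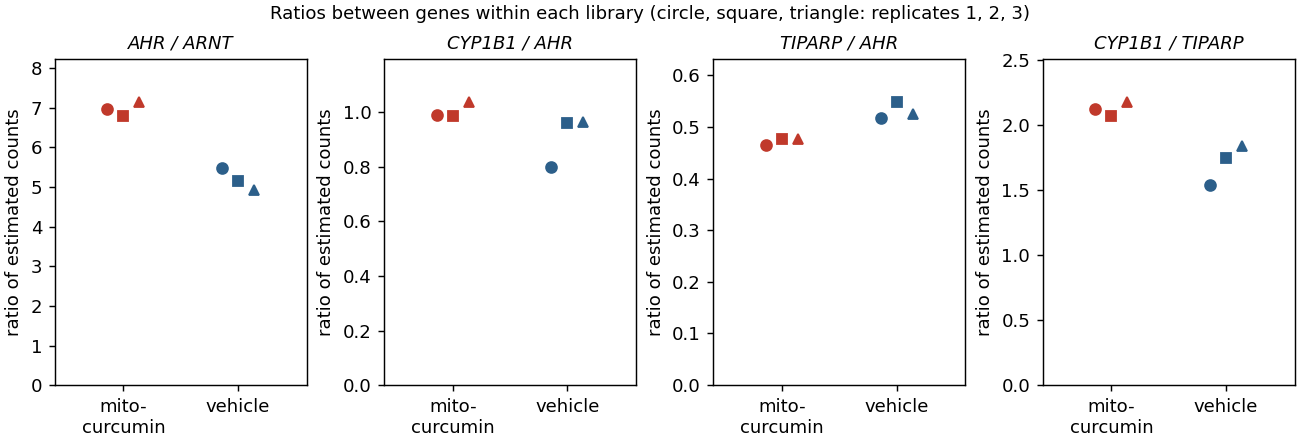
Ratio of the estimated counts of 2 genes within each library, with a linear axis from 0, mitocurcumin in red left of vehicle in blue and replicates 1, 2 and 3 as circle, square and triangle. AHR to ARNT, CYP1B1 to AHR and CYP1B1 to TIPARP lie higher in all mitocurcumin libraries, and TIPARP to AHR lies lower.

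The ratio tests numbered 6, and the Benjamini-Hochberg adjusted p was 0.15 for each of the 4 ratios without overlap (exact permutation tests). CYP1B1 to TIPARP differed by 0.32 on the log2 scale (exact two-sided permutation test, p = 0.1), without overlap. AHRR to AHR differed by -0.02 (exact two-sided permutation test, p = 0.9), and CYP1A1 to CYP1B1 by 0.15 (exact two-sided permutation test, p = 0.8). Neither had a stable sign: with 1 library left out AHRR to AHR ran from -0.15 to 0.15, and CYP1A1 to CYP1B1 was -0.10 without mitocurcumin replicate 2 and -0.23 without vehicle replicate 2.

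Set per kilobase of exon, so that genes of different length can be compared, CYP1B1 was the most abundant of the 6 genes. Its level was 70.7 ± 0.812 CPM per kilobase after mitocurcumin and 50.9 ± 5.82 with vehicle. AHR followed with 50.4 ± 1.67 after mitocurcumin and 40.1 ± 1.13 with vehicle, and TIPARP with 37.9 ± 1.30 after mitocurcumin and 33.9 ± 0.899 with vehicle. ARNT was lower, at 11.2 ± 0.664 CPM per kilobase after mitocurcumin and 12.0 ± 0.874 with vehicle. At the bottom, CYP1A1 had 0.350 ± 0.116 after mitocurcumin and 0.230 ± 0.0846 with vehicle, and AHRR had 0.303 ± 0.0534 after mitocurcumin and 0.246 ± 0.0475 with vehicle (SD, n = 3 for each value). Neighbours in this order did not overlap within either group, except CYP1A1 and AHRR, whose order also turned between the groups. Exon lengths came from GENCODE release 29 and are not those of the counting, so these levels are approximate.

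**Figure D3:**
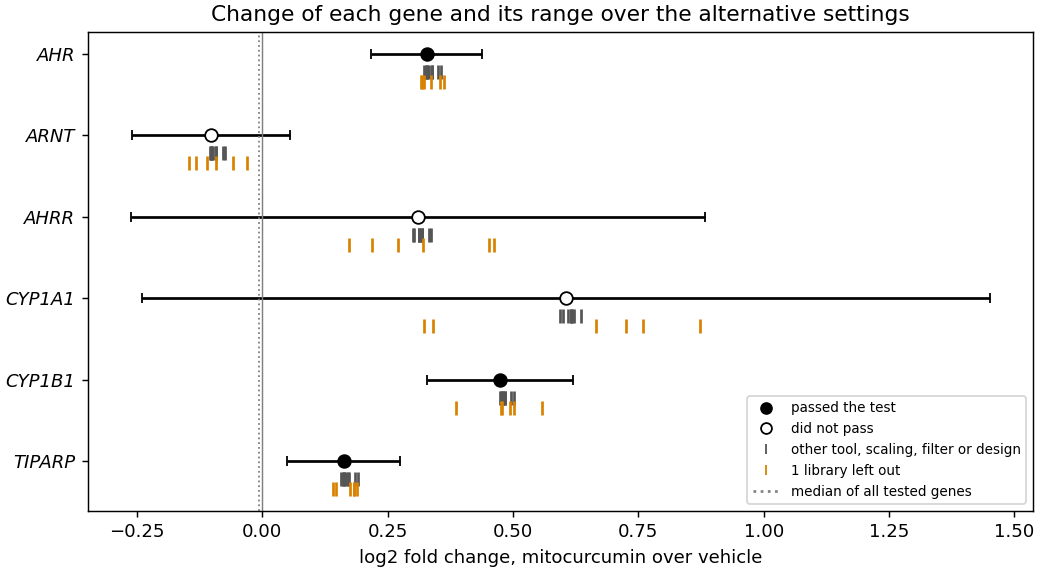
Log2 fold change of each gene, mitocurcumin over vehicle, with its 95% interval, and below each point the values under other tools, scalings, filters or designs in grey and with 1 library left out in orange. AHR and CYP1B1 stay clear of 0 in every setting, TIPARP stays above 0 at 0.14 to 0.19, and the intervals of ARNT, AHRR and CYP1A1 span 0.

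Of 6 tested genes for the cytosolic complex that holds unliganded AHR and for its turnover, 2 were higher and 0 lower, with a median log2 fold change of 0.11, where 14.7% of all tested genes were higher and 17.8% lower, with a median of -0.0059. HSP90AA1, the inducible HSP90, rose by 0.59 ± 0.07 and had 4095, 3555 and 4341 CPM after mitocurcumin, against 2387, 2788 and 2779 CPM with vehicle. HSP90AB1, the constitutive form, rose by 0.40 ± 0.06. PTGES3, which encodes p23, had a log2 fold change of 0.15 ± 0.06 and missed the threshold (edgeR adjusted p = 0.0518). STUB1, the ubiquitin ligase CHIP, stood at -0.29 ± 0.11 (edgeR adjusted p = 0.0597). The list had 1 lower gene without vehicle replicate 1 or without vehicle replicate 3. Its count of higher genes was 2 to 3 over 15 alternatives, and 3 with DESeq2 and with upper-quartile scaling, among others.

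Other bHLH-PAS genes, which include further partners of ARNT, had 3 higher and 3 lower genes of 9 tested, beside shares of 14.7% higher and 17.8% lower over all tested genes. EPAS1, the hypoxia factor HIF-2 alpha, had 147, 139 and 145 CPM after mitocurcumin, against 73.0, 72.6 and 66.2 CPM with vehicle. It rose by 1.03 ± 0.06 (edgeR adjusted p = 1.4e-09), more than any of the 6 AHR pathway genes described above that passed the test. HIF1A, its better known relative, had a log2 fold change of -0.08 ± 0.05 and did not pass (edgeR adjusted p = 0.282). SIM2, a factor of neural development, rose by 1.0 ± 0.21 to a low 4.07 CPM after mitocurcumin, against 2.04 CPM with vehicle. The lower genes were the clock factors NPAS2, at -0.43 ± 0.08, and CLOCK, at -0.30 ± 0.06, and the ARNT paralog ARNT2, at -0.36 ± 0.09. The clock factor BMAL1 rose by 0.44 ± 0.10. SIM1, NPAS1, NPAS3 and NPAS4 were too low to test.

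Coregulators and binding partners of the receptor had 7 higher and 2 lower genes of 12, with a median log2 fold change of 0.21. Over all tested genes the shares were 14.7% and 17.8% and the median -0.0059, so the count of lower genes was near the background. NCOA7, a coactivator also induced by stress, had 168, 163 and 164 CPM after mitocurcumin, against 76.8, 84.3 and 84.9 CPM with vehicle, a rise of 1.01 ± 0.06. RELB, an NF-kB subunit that can pair with AHR, rose by 0.73 ± 0.11, and the coactivator NCOA3 by 0.44 ± 0.06. SMARCA4, the BRG1 remodelling ATPase, fell by 0.29 ± 0.06 on the log2 scale, and RB1, the retinoblastoma protein that binds AHR, fell by 0.26 ± 0.05. The acetyltransferases EP300 and CREBBP did not pass, at 0.12 ± 0.06 and 0.05 ± 0.05.

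Of 12 tested further genes reported as AHR targets 5 were higher and 2 lower, with a median log2 fold change of 0.17. The count of lower genes was near the background of 17.8% of all tested genes, while 14.7% of all tested genes were higher. NQO1, the quinone reductase shared with NRF2, had 158, 172.5 and 164.5 CPM after mitocurcumin and 151, 152 and 136 CPM with vehicle, a rise of 0.17 ± 0.06 (edgeR adjusted p = 0.0329). That call was lost without mitocurcumin replicate 2 or 3 and without vehicle replicate 3, with a range of 0.00404 to 0.133. SLC7A5, the leucine transporter, rose by 1.58 ± 0.07 and is also a target of the stress factor ATF4. NFE2L2, which encodes NRF2, rose by 0.61 ± 0.05, and EREG, a ligand of the EGF receptor, by 0.23 ± 0.07. STC2, a secreted glycoprotein, rose by 1.14 ± 0.42 from at most 36 counts a library, and lost its call in 6 of 14 alternatives: with DESeq2, and without any 1 of the mitocurcumin libraries, vehicle replicate 2 or vehicle replicate 3. Its log2 fold change was 1.72 without vehicle replicate 1. ABCG2, an efflux transporter, fell by 0.56 ± 0.16 on the log2 scale, and NEDD9, a scaffold of focal adhesions, fell by 0.28 ± 0.07. The call of ABCG2 was lost without mitocurcumin replicate 1 or 2, which left 1 lower gene in the list. The count of higher genes in this list was 5 in the full comparison and 2 without mitocurcumin replicate 2. It was 3 without mitocurcumin replicate 1, without mitocurcumin replicate 3 or without vehicle replicate 3. ALDH3A1, an aldehyde dehydrogenase of the classical battery, averaged 0.552 CPM after mitocurcumin and 0.629 CPM with vehicle and did not pass. UGT1A1 and UGT1A6, which share exons, and VAV3 were too low to test.

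**Figure D4:**
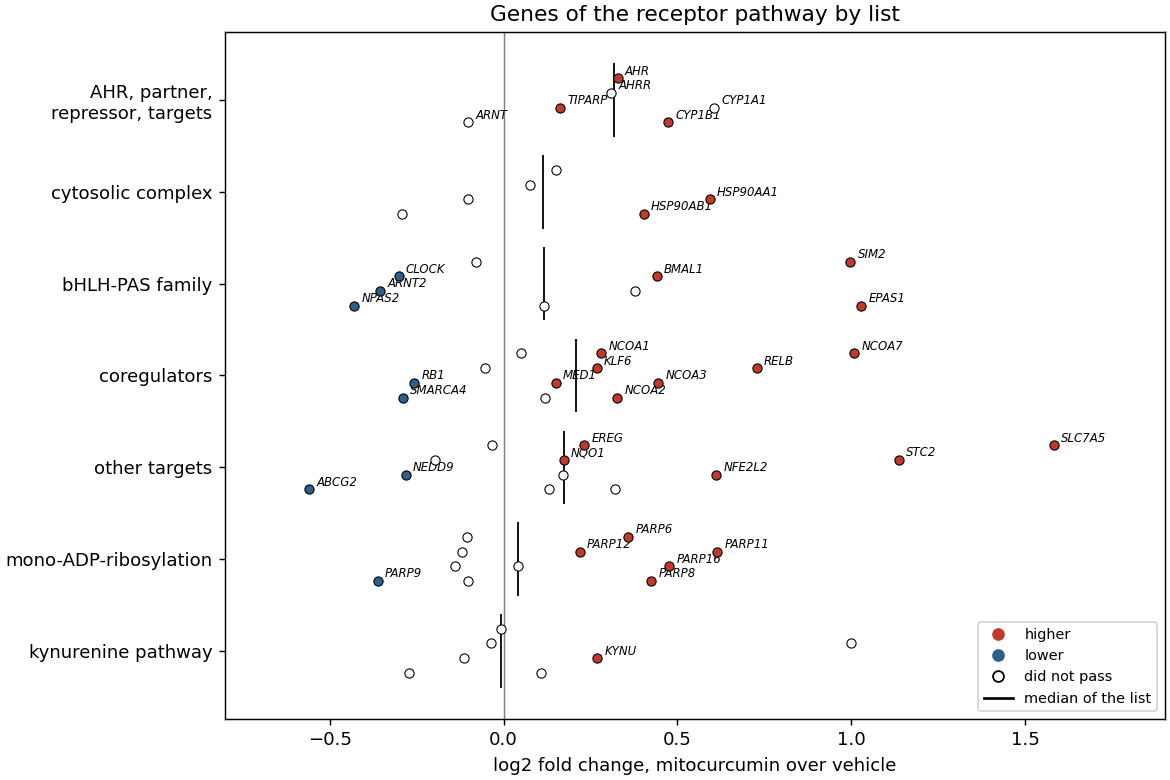
Log2 fold change, mitocurcumin over vehicle, of each tested gene of the receptor pathway by list, filled red where higher, blue where lower and white where the test was not passed, with the median of each list as a black line. The bHLH-PAS family, coregulators, other targets and mono-ADP-ribosylation lists hold genes that passed on both sides of 0. The 3 that passed in the top row are all higher, as are those that passed in the cytosolic complex and kynurenine pathway lists.

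A list around mono-ADP-ribosylation, the attachment of single ADP-ribose units as by TIPARP, had 5 higher and 1 lower genes of 11 tested. The list also covers removal of such units, and its median log2 fold change was 0.04. Over all tested genes 14.7% were higher and 17.8% lower, with a median of -0.0059. PARP11 rose by 0.61 ± 0.12 and PARP16, of the endoplasmic reticulum, by 0.48 ± 0.16, while PARP9 fell by 0.36 ± 0.10 on the log2 scale. The call of PARP16 was lost without mitocurcumin replicate 1 or 2 and without vehicle replicate 3. The list had 3 higher genes without mitocurcumin replicate 1 or without vehicle replicate 3, and 3 lower genes without vehicle replicate 1. The kynurenine pathway makes AHR ligands from tryptophan. A list around it, which also held IL4I1, had 1 higher and 0 lower genes of 7 tested. Its median log2 fold change was -0.007. Its share of higher genes was near the 14.7% of all tested genes, of which 17.8% were lower. Its higher member was KYNU, kynureninase, at 0.27 ± 0.06, while IDO1, the entry enzyme, stood at 2.77 CPM after mitocurcumin and 2.98 CPM with vehicle (edgeR adjusted p = 0.76). The list had 2 higher genes without mitocurcumin replicate 3. IDO2 and TDO2, the other entry enzymes, were too low to test.

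Genes with the profile most like each AHR pathway gene were sought among 11160 genes with a mean of at least 5 CPM, by Euclidean distance between centred log2 CPM over the 6 libraries. For AHR these were FNDC3B and NCOR1, a corepressor, at distances of 0.0319 and 0.0584 on the log2 scale. For CYP1B1 they were AFTPH and BRAP, at 0.0487 and 0.0601, and for TIPARP STAM and ZNF655, at 0.0484 and 0.0583. ARNT lay closest to IGFL4 and GPC6, at 0.0427 and 0.0549. The low genes had no near neighbour in this pool: AHRR lay 0.230 from PPP3CC and 0.235 from BAHD1, and CYP1A1 lay 0.629 from SGSH. Both lay below the 5 CPM asked of the pool, so counting noise and a distinct profile cannot be told apart here. With 6 libraries in 2 groups, such likeness is a description and carries no test.

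The libraries held 23146822 to 29104681 counts. Vehicle replicate 1 stood apart from the other vehicle libraries on the second principal component, at 31.3 against -17.1 and -17.2. The line's markers were abundant, with VIM at 2337 CPM after mitocurcumin and 2163 CPM with vehicle, and ESR1 and PGR were too low to test, while ERBB2, the HER2 gene, was measurable. Of 9 markers of leukocytes, endothelium, fibroblasts and hepatocytes 6 were tested, 0 were higher and 2 lower, CD68 and PECAM1. Over all tested genes 14.7% were higher and 17.8% lower. The summed level of the 9 markers was 100.1 to 124 CPM after mitocurcumin and 136 to 148 CPM with vehicle. Most of that sum was CD68, at a mean of 90.8 CPM after mitocurcumin and 110.7 CPM with vehicle. CD3E had 1 count in each group and VWF 5. Of 4 nuclear RNAs used as a sign of RNA quality NEAT1 was higher, and their sum was 4895 to 7380 CPM after mitocurcumin and 4532 to 5431 CPM with vehicle. Most of that sum was MALAT1, which did not pass the test. It averaged 3919 ± 1219 CPM after mitocurcumin and 3553 ± 451 CPM with vehicle (SD). The part of these differences in the changes of the AHR pathway genes was not tested.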

How the data were processed

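RNA was extracted with Trizol, and a KAPA kit served for poly(A) capture and strand-keeping library construction, per the labels' protocols. Per the submitters' processing notes, reads were placed on GRCh38, and the gene model RefSeq, per the file headers. For the aligner, the counter and the use of strand, the entry is: not given in the sources used here. As deposited by the authors, the tables hold estimated counts per gene, with 20.4% to 21.7% of values above 0 whole, and log2 values that equal log2 of the count divided by 1 factor per library, with lower values at 0. Totals were 23146822 to 29104681 counts.

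Rounded counts entered edgeR 4.0.16 under R 4.3.3 (quasi-likelihood F-test, robust, TMM, filterByExpr with a minimum count of 10 and a total of 15). The group was the only term, and p-values were two-sided and Benjamini-Hochberg adjusted over 16481 genes at 0.05. The design had assumed counts, and rounding was what the estimated counts needed. Intervals are 95%, from the fitted SE. Alternatives used DESeq2 1.42.0, limma 3.58.1, other scalings and filters, unrounded counts, a replicate block and each library left out. Columns were matched to samples by treatment word and replicate numeral.

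The genes and lists were chosen with earlier results of these data known. Named were the 6 genes, up to 2 rises and 2 falls among changed genes per list, NQO1 and CYP1A2, overlapping genes and the nearest profiles. Other genes in the text were named after their values were seen. Certain genes were left out of the lists and their counts, or of the profiles named, and are not reported here. Replicates of a group differed by more than sampling noise (chi-square per gene of 5.31 to 19.0), so none was counted as a duplicate. The test was tried on simulated counts. Counting intervals cover counting error only.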

Additional observations from a re-analysis of the deposited data

How the results depend on the processing

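Under 15 alternatives AHR kept its rise, at 0.32 to 0.36, and CYP1B1 at 0.39 to 0.56, both past the threshold throughout. ARNT stayed short of it at -0.15 to -0.03, AHRR over 16 alternatives at 0.17 to 0.46, and CYP1A1 over 14 at 0.32 to 0.87; a filter at a mean of 1 CPM removed CYP1A1. TIPARP stayed at 0.14 to 0.19 but missed the threshold at 0.15 without mitocurcumin replicate 2 and at 0.18 without vehicle replicate 2; with fewer libraries the test has less power. With libraries left out in turn, the genes called higher over the whole table numbered 1850 to 2872 and those called lower 2165 to 3216. Upper-quartile scaling gave 2674 higher and 2609 lower, against 2425 and 2938 in the main comparison. Ratios within a library do not depend on scaling. The replicate numbers gave little sign of pairing. Deviations of same-numbered libraries correlated at 0.101, 0.017 and -0.01, and those of differently numbered libraries at -0.109 to 0.091. Correlations this weak cannot show whether the libraries were prepared in pairs. The replicate block gave 2643 higher and 3163 lower genes and left the calls of AHR (0.33), CYP1B1 (0.48), TIPARP (0.16) and the other 3 genes as they were. Low counts limit AHRR and CYP1A1, with at most 58 and 35 counts in any library. A floor of 3 counts was 0.104 to 0.128 CPM, and both genes lay above it in every library.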
